A study of Mus musculus with 11 samples.

Results

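The genes of calcium release and store-operated entry are 10 of the 48795 genes in the deposited table: the phospholipase Plcg2, the inositol trisphosphate (IP3) receptors Itpr1, Itpr2 and Itpr3, the IP3 kinase Itpkb, the calcium sensors Stim1 and Stim2, the pore Orai1, the pump Atp2a3 and the transcription factor Nfatc1. They were found by the Ensembl identifier of the mouse symbol, and all 10 were present and above 0 in each of the 11 libraries. The study named Itpr1 among genes bound by MIZ1 and MYC in chromatin immunoprecipitation, which is not analysed here. The genes it named were also significantly higher in light zone (LZ) cells of the mutant than of the wild-type genotype by its own test. The LZ values of Itpr1 were thus part of the choice, so their comparison between genotypes is given as a description, with no test. The other 9 genes were added by their place in the pathway, with earlier results of these data known.

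The study asked what the complex of the transcription factors MYC and MIZ1 does in germinal center (GC) B cells that have been positively selected. LZ GC B cells were sorted from the spleens of 4 female Myc_WT mice and of 4 female Myc_VD mice, which carry a MYC that no longer binds MIZ1 (V394D at the endogenous Myc locus), and memory B cells (MBCs) were sorted from 3 of the same Myc_WT mice. All mice were 8 to 12 weeks old and had been immunized intravenously with sheep red blood cells 10 days before, so all groups share the immunization and no unimmunized group is compared here. LZ cells were gated as B220+ CD138neg IgDneg CD38neg or low, Fas+, CD86 high and CXCR4 low, and MBCs as B220+ CD138neg IgDneg CD38+ CD273+; each library is 1 mouse. The mouse names in the labels begin with the same letters for all 4 Myc_WT mice, followed by another number in mouse 4 than in mice 1, 2 and 3, and with other letters for the Myc_VD mice. What these letters stand for is not stated in the sources used here, and the genotype and whatever they mark cannot be told apart.

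In B cells, binding of antigen to the B cell receptor activates PLCG2, the phospholipase C of this lineage, which cuts a membrane lipid into diacylglycerol and IP3. IP3 opens the IP3 receptors, which are calcium channels of the endoplasmic reticulum (ER), and as the store empties the ER sensors STIM1 and STIM2 bind and open the plasma membrane pore ORAI1, a route named store-operated entry. The calcium that enters activates calcineurin, which removes phosphates from NFAT factors and so lets them enter the nucleus, while pumps such as SERCA3, the product of Atp2a3, refill the store and ITPKB phosphorylates IP3 to the next inositol phosphate.

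The 3 IP3 receptors are paralogs, so the sequences that they share were read from the GENCODE M21 transcripts (GRCm38) to see how well short reads can be assigned to each of them. The longest run of identical coding bases was 28 bases between Itpr1 and Itpr2, 29 bases between Itpr1 and Itpr3 and 32 bases between Itpr2 and Itpr3. These runs are shown in capitals, 5′ to 3′ on the coding strand, with 12 bases of each gene on either side in lower case.
Itpr1, chr6:108541973-108542024, strand +, exon 61: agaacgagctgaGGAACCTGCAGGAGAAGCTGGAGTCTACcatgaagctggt
Itpr2, chr6:146112417-146112468, strand -, exon 56: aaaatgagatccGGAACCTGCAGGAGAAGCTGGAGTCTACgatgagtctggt
Itpr1, chr6:108473598-108473650, strand +, exon 46: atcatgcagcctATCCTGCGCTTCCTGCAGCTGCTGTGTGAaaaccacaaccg
Itpr3, chr17:27113863-27113915, strand +, exon 41: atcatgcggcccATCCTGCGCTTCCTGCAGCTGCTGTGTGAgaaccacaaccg
Itpr2, chr6:146187475-146187530, strand -, exon 48: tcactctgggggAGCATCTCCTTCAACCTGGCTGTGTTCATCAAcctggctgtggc
Itpr3, chr17:27116207-27116262, strand +, exon 49: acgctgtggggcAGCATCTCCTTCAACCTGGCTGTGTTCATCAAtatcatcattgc
No stretch of 50 bases in any annotated transcript of a member occurred in a transcript of another member, among 18591 such stretches in Itpr1, 14889 in Itpr2 and 8969 in Itpr3. The coding sequences were 8247 bases long for Itpr1, 8103 bases for Itpr2 and 8010 bases for Itpr3. Stim1 and Stim2, the other paralogs among the members, shared at most 15 coding bases in a row. The length of the reads is not given in the sources used here. Itpr1 spans chr6:108213096-108551109 on the plus strand, Itpr2 chr6:146108299-146502223 on the minus strand and Itpr3 chr17:27057304-27122223 on the plus strand. Genes annotated inside Itpr2 and Itpkb on the same strand reached up to 46.52 TPM for the pseudogene Gm15720 in Itpr2 and up to 57.21 TPM for Gm36933 in Itpkb. The highest such value within Itpr1 was 22.53 TPM, for Gm27813. How RSEM divided reads between such overlapping genes was not tested, so the levels of these members carry that uncertainty.

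Promoters were available from RefSeq (GRCm38.p6) for 8 of the 10 members, and were searched over the 250 bases before the start on both strands. The E-box CACGTG, to which MYC binds together with MAX, occurred in 2 of these 8 promoters, those of Plcg2 and Itpr3, and in 6.02% of all 32851 promoters of that length. The GC box GGGCGG occurred in 7 of the 8 and in 32.7% of all, while the NFAT core GGAAAA (20.4% of all) and the letters TATAAA (12.4% of all) occurred in 0 of the 8. The 100 bases before the start are shown for the 2 promoters with an E-box and for Stim2, which was higher in MBCs by the test described in the following paragraphs, with each E-box and each GC box on either strand in capitals; no motif overlapped another of a different kind.
Plcg2, chr8:117498175-117498274, strand +: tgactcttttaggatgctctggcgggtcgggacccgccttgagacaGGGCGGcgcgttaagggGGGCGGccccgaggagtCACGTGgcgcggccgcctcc
Itpr3, chr17:27057204-27057303, strand +: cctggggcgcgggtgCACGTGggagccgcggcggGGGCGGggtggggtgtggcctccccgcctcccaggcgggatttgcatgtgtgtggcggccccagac
Stim2, chr5:53998423-53998522, strand +: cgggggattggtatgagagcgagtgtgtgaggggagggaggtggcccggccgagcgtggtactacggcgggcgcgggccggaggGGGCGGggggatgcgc
The E-box began 20 bases before the start in Plcg2 and 85 bases before it in Itpr3. The Stim2 promoter held 3 GC boxes over its 250 bases, 1 of them in the stretch shown, and its GC content was 74.8% against a median of 52.4% over all promoters. A match in these letters is no evidence of binding.

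Expression is given as TPM, estimated reads divided by transcript length and brought to the same sum in each library, so levels can be compared between genes. TPM hold no depth, and counting error cannot be given. In bulk libraries, fewer cells of a type and less RNA per cell cannot be told apart. The GC and memory markers went with the labels. All 7 GC markers were lower in every MBC library than in every Myc_WT LZ library, beside 14.4% of all genes. Of 6 memory markers 5 were higher, all but Nt5e, beside 11.8% of all genes. Fas among the former and Cd38 and Pdcd1lg2 (CD273) among the latter were used in the sort. Zone markers separated less. Of 4 light zone markers 1 was lower in MBCs, Cd86, also used in the sort. Of 4 dark zone markers 2 were lower and 1, Foxp1, was higher. The dark zone sum was 606.1 to 961.1 TPM in MBCs against 273.7 to 439.3 TPM, and Foxp1 made up most of it in MBCs. The summed level of 4 markers of naive follicular B cells was also higher in MBCs, at 935.9 to 1058 TPM against 364.3 to 367.7 TPM, and that of 5 general B cell markers was 3439 to 4908 TPM against 2078 to 2682 TPM. Ribosomal RNA took 35.7 to 44.5% of TPM in Myc_WT LZ, 44.1 to 61.3% in Myc_VD LZ and 36.1 to 37.5% in MBCs. Between 15460 and 19537 genes were above 0 in Myc_WT LZ, 13169 to 16421 in Myc_VD LZ and 11527 to 16040 in MBCs. MBC mouse 3 held 2609 TPM of the hemoglobin Hbb-bs, while it was at 2.35 to 194.2 TPM in the other libraries, and MBC mouse 4 held 135.6 TPM of the myeloid gene Lyz2 and 17.7 TPM of the T cell receptor gene Trac. In Myc_VD LZ cells the summed level of 6 memory B cell markers was below that in Myc_WT LZ cells, at 16.8 to 35.9 against 40.04 to 54.5 TPM, as was that of 6 plasma cell markers, at 133.8 to 220.7 against 229.4 to 381.4 TPM. By single markers, 2 of the 6 memory markers, Nt5e and Hhex, and 1 of the 6 plasma markers, Jchain, were lower in every Myc_VD library than in every Myc_WT LZ library. Over all 12869 genes tested, 9.16% were lower and 0.816% higher in Myc_VD in this way. Jchain made up most of the plasma sum in LZ cells, while Sdc1, Prdm1 and Irf4 each had Myc_VD libraries above the Myc_WT range. The summed level of 7 T cell markers was 3.08 to 8.05 TPM in Myc_WT LZ, 1.72 to 11.7 TPM in Myc_VD LZ and 0 to 30.2 TPM in MBCs, and that of 6 myeloid markers was 7.69 to 15.4, 10.9 to 18.1 and 37.3 to 186.0 TPM. Their part in the results was not tested, and values without the MBC libraries of mice 3 and 4 are given for the genes that passed the test in MBCs.

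In Myc_WT LZ B cells, the phospholipase, the pump and the NFAT factor were the most abundant members. Plcg2 had a mean of 83.8 TPM ± 17.6 (SD, n = 4), Atp2a3 76.3 ± 8.36 and Nfatc1 67.1 ± 9.65, and the ranges of these neighbors overlapped. Itpr2 (45.5 ± 5.22 TPM) and Itpkb (41.7 ± 0.965 TPM) came next, clear of Nfatc1 above them and of Itpr1 (30.4 ± 2.32 TPM) below. The ranges of Itpr1, Itpr3 (27.8 ± 4.02 TPM) and Stim1 (23.9 ± 3.95 TPM) overlapped, although Itpr1 was above Stim1 within every Myc_WT LZ library. Stim2 (12.2 ± 2.13 TPM) and Orai1 (6.50 ± 3.68 TPM) were the least abundant members, and overlapped each other. The order was different in MBCs, where Itpr1 had the highest mean (147 ± 63.3 TPM, n = 3), ahead of Atp2a3 (143 ± 35.6 TPM), Nfatc1 (108 ± 16.3 TPM), Itpr2 (104 ± 69.3 TPM) and Plcg2 (98.4 ± 5.32 TPM), although neighbors among these 5 overlapped. Orai1 stayed the least abundant, at 8.69 ± 7.91 TPM, clear of Itpr3 (25.4 ± 7.75 TPM).

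**Figure D1:**
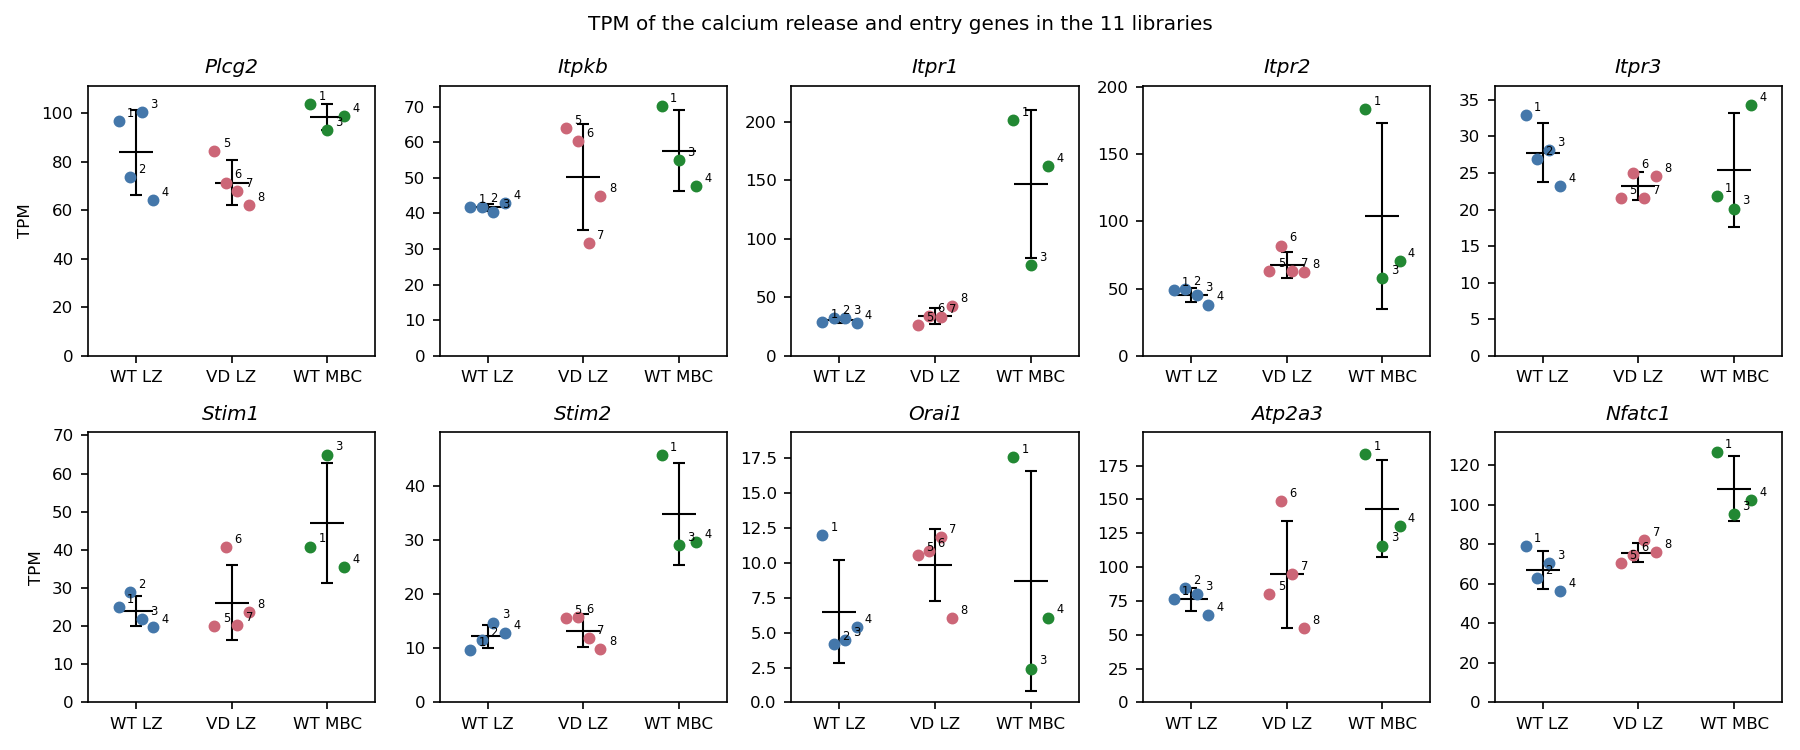
TPM (vertical axes, linear from 0, with a scale of its own for each gene) of the 10 genes in Myc_WT LZ (blue), Myc_VD LZ (red) and Myc_WT MBC (green) libraries; points are mice with their number, horizontal bars are means and whiskers are 1 SD. Itpr1 lies at 26.1 to 42.7 TPM in the 8 LZ libraries and at 77.4 to 201.2 TPM in the 3 MBC libraries.

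The comparison of MBCs with Myc_WT LZ B cells asks how the pathway differs between GC B cells and the memory cells of the same mice. Itpr1 and Stim2 were higher in MBCs, the other 8 members did not pass the test, and no member was lower past it. The test was limma on log2(TPM + 1) over 13245 genes with Benjamini-Hochberg adjustment at 0.05. Since Itpr1 was chosen on a comparison with the same Myc_WT LZ libraries, counts are given over the other 9 members. Of these, 1 was called higher, Stim2, beside 4.17% of all genes, and 0 of 9 lower, beside 5.04% of all genes. At an unadjusted p under 0.05 stood 5 of the 9, beside 27.1% of all genes. The median difference of the 9 was 0.68 on the log2 scale against -0.14 for all genes tested. The median of all genes was 0.01 without the MBCs of mouse 3, -0.30 without those of mouse 4, 0.02 after quantile normalization and 0.01 after removal of immunoglobulin and mitochondrial genes, so its sign depended on the fit. The median of the 9 was between 0.47 and 0.91 in the alternatives. The groups did not overlap for 6 of the 9, each time with MBCs above, where 11.8% of all genes had MBCs above and 14.4% had them below. With the mouse as a block over the 3 mice that gave both libraries, 0 of the 9 were called, with 3 at an unadjusted p under 0.05 by limma, beside 16.8% of all genes. Of the 10, Itpr1 alone was called in that fit, beside 0.989% of all genes called higher and 0.897% called lower.

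Itpr1 encodes the IP3 receptor type 1. It was at 29.2, 32.1, 32.6 and 27.8 TPM in the LZ libraries of Myc_WT mice 1 to 4, and at 201.2, 77.4 and 162.2 TPM in the MBCs of mice 1, 3 and 4. Every MBC library was above every LZ library, of both genotypes, and the MBCs of mouse 3 were the lowest of the 3. The difference was 2.13 on the log2 scale (SE 0.35, adjusted p = 0.0093 by limma) and 4.83-fold between the means. Within a mouse the MBCs held 6.90-fold, 2.38-fold and 5.84-fold the level of the LZ cells in mice 1, 3 and 4. An exact two-sided permutation test gave p = 0.0286, the smallest that the 35 groupings of 3 libraries and 4 allow, for Itpr1 and for every other member whose groups did not overlap. Itpr1 stayed past the threshold in all 17 alternative fits, at 1.85 to 2.54 on the log2 scale with adjusted p between 0.0015 and 0.0457. It was at 2.54 (adjusted p = 0.0017) without the MBCs of mouse 3 and at 2.01 (adjusted p = 0.016) without those of mouse 4, the libraries with the most hemoglobin and the highest sum of myeloid markers. That sum was 37.3, 59.6 and 186.0 TPM in the MBCs of mice 1, 3 and 4, above every LZ library in all 3, so leaving out 1 of them does not remove it. This comparison uses the same Myc_WT LZ libraries as the comparison on which the study selected Itpr1, so its p-values are not independent of that choice.

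Stim2, the ER sensor known to respond to small falls of store calcium, was the other member that passed. Its level was 9.72, 11.5, 14.8 and 12.9 TPM in Myc_WT LZ cells and 45.7, 29.1 and 29.6 TPM in MBCs, with no overlap. The difference was 1.42 on the log2 scale (SE 0.35, adjusted p = 0.0369 by limma), and 4.70-fold, 1.97-fold and 2.30-fold within mice 1, 3 and 4. The call was not stable: it was lost with the mouse as a block (adjusted p = 0.269), without a filter on low values (adjusted p = 0.0509), without the MBCs of mouse 1 (adjusted p = 0.0637) and without any single Myc_WT LZ library (adjusted p between 0.0981 and 0.129), while the difference stayed between 1.21 and 1.66 in every fit. Without the MBCs of mouse 3 or of mouse 4 the adjusted p was 0.0242 or 0.0259.

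Stim1, the main ER sensor that opens ORAI1, had 25.04, 28.8, 21.8 and 19.8 TPM in Myc_WT LZ cells and 40.9, 65.0 and 35.5 TPM in MBCs. The groups did not overlap, and the MBCs of mouse 3, the lowest for Itpr1, were the highest for Stim1. The difference of 0.92 on the log2 scale (SE 0.33) did not pass the threshold (adjusted p = 0.11 by limma). Orai1, the pore itself, was at 12.0, 4.16, 4.48 and 5.38 TPM in Myc_WT LZ cells and at 17.6, 2.42 and 6.08 TPM in MBCs. MBC libraries lay both above and below the LZ libraries, and the difference of 0.14 had an SE of 0.66 (adjusted p = 0.916), so the spread between mice exceeded it. Its sign was negative with the mouse as a block and in 2 of the fits that leave out a library.

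Atp2a3, which encodes the SERCA3 pump of hematopoietic cells, showed 76.3, 84.2, 79.8 and 64.7 TPM in Myc_WT LZ cells and 183.5, 115.9 and 130.3 TPM in MBCs. Every MBC library was above every LZ library of Myc_WT mice, and within mice 1, 3 and 4 the MBCs held 2.40-fold, 1.45-fold and 2.01-fold the LZ level. The difference of 0.88 (SE 0.25) lay just outside the threshold (adjusted p = 0.0584 by limma), and the side depended on the fit. It passed when only genes averaging 5 TPM or more were tested (adjusted p = 0.0477), after rescaling by the median ratio (0.0375), after removal of immunoglobulin and mitochondrial genes (0.0226) and without the MBCs of mouse 3 (0.0339). It was farther from the threshold with the mouse as a block (adjusted p = 0.253), without a trend of the variance (0.141), without any single Myc_WT LZ library (0.135 to 0.143) and without the MBCs of mouse 1 (0.103). Nfatc1, the NFAT factor, had 78.9, 62.9, 70.3 and 56.5 TPM in Myc_WT LZ cells and 126.5, 95.4 and 102.2 TPM in MBCs, again without overlap. Its difference of 0.68 (SE 0.24, adjusted p = 0.111) passed only after removal of immunoglobulin and mitochondrial genes (adjusted p = 0.0391).

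Itpr2 was at 48.8, 49.6, 45.3 and 38.1 TPM in Myc_WT LZ cells and at 183.6, 57.7 and 70.2 TPM in MBCs. The MBCs of mouse 1 stood far above the other MBC libraries, and the difference of 0.99 (SE 0.40, adjusted p = 0.15) was 0.48 without that library. Itpr3 had 33.0, 26.9, 28.1 and 23.2 TPM in Myc_WT LZ cells and 21.8, 20.1 and 34.3 TPM in MBCs, so the groups overlapped and the difference of -0.15 (SE 0.32, adjusted p = 0.804) was within the spread. Itpkb was nearly constant in Myc_WT LZ cells (41.7, 41.9, 40.5 and 42.8 TPM) and was at 70.3, 55.0 and 47.7 TPM in MBCs, without overlap and with a difference of 0.44 (SE 0.26, adjusted p = 0.312). Plcg2 had 96.8, 73.7, 100.3 and 64.3 TPM against 103.6, 93.0 and 98.8 TPM, overlapping, with a difference of 0.25 (SE 0.25, adjusted p = 0.552).

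The make-up of the IP3 receptor family differed between the sorted populations, which can be read within a library and so does not depend on how libraries were scaled. Itpr2 was the largest receptor in every LZ library of both genotypes. In Myc_WT LZ cells Itpr1 made up 26.3 to 31.2% of the summed TPM of the 3 receptors, Itpr2 42.7 to 45.6% and Itpr3 24.8 to 29.7%. MBCs held 49.5, 49.9 and 60.8% Itpr1 in mice 1, 3 and 4, which makes it the largest receptor in all 3 libraries, while Itpr3 was at 5.36, 13.0 and 12.9%. Itpr2 was at 45.1, 37.2 and 26.3%, so its share in mouse 1 lay within the Myc_WT LZ range and near that of Itpr1 in the same library. The summed level of the 3 receptors was 89.1 to 110.9 TPM in Myc_WT LZ cells and 406.6, 155.2 and 266.7 TPM in MBCs. In Myc_VD LZ cells Itpr3 took 17.8 to 19.5% and Itpr2 48.1 to 58.1%, and neither range overlapped that of Myc_WT LZ cells, while Itpr1 (23.5 to 32.9%) overlapped. These shares are a description and were not tested.

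**Figure D2:**
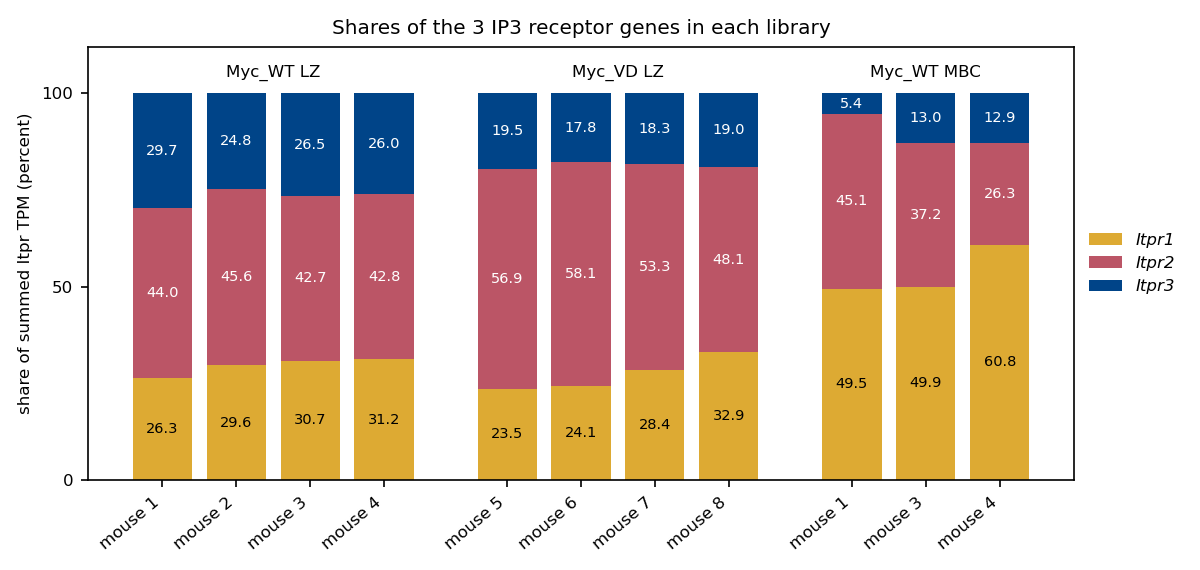
Share of Itpr1 (yellow), Itpr2 (red) and Itpr3 (blue) in the summed TPM of the 3 genes (vertical axis, percent) in each of the 11 libraries, 1 bar per mouse and population. Itpr1 is at 23.5 to 32.9% in the LZ libraries and at 49.5 to 60.8% in MBCs.

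Among the other paralogs, Stim1 made up 59.6 to 72.0% of the sum of Stim1 and Stim2 in Myc_WT LZ cells, 56.1 to 72.0% in Myc_VD LZ cells and 47.2 to 69.1% in MBCs, so the groups overlapped. Orai1 was under the sum of the other ORAI pores in every library, with 12.3 to 29.4% of the summed TPM of Orai1, Orai2 and Orai3 in Myc_WT LZ cells, 23.8 to 27.5% in Myc_VD LZ cells and 2.34 to 17.0% in MBCs. Atp2a3 made up 53.1 to 60.5% of the SERCA pumps in Myc_WT LZ cells, 58.1 to 81.0% in Myc_VD LZ cells and 65.6 to 85.6% in MBCs, where the MBC range was clear of the Myc_WT LZ range. Plcg2 made up 85.0 to 98.1% of the sum of Plcg1 and Plcg2 over all 11 libraries, and Nfatc1 24.2 to 44.2% of the 4 calcineurin-dependent NFAT genes.

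The comparison of Myc_VD with Myc_WT LZ B cells asks what the loss of MYC-MIZ1 binding does to these genes. None of the 9 members tested was called, and over all 12869 genes 0.0466% were called. At an unadjusted p under 0.05 by limma stood 1 of the 9, Itpr2, beside 16.9% of all genes. The median difference of these 9 was 0.18 on the log2 scale against -0.31 for all genes, and all 9 lay above that median, 7 of them above 0. Without Myc_VD mouse 6 the median of the 9 was 0.014, with 5 above 0. Above the median of all genes were 8 of the 9 without Myc_VD mouse 8 and 7 of the 9 without a filter on low values. That shift of all genes was -0.01 after rescaling by the median ratio, -0.01 after quantile normalization and -0.05 after removal of ribosomal RNA, whose share was higher in Myc_VD. The median of the 9 was then 0.52, 0.45 and 0.49, all 9 lay above 0 and 0 of 9 were called, with 4, 3 and 5 at an unadjusted p under 0.05 beside 11.8, 13.1 and 11.1% of all genes. Itpr2 was the 1 member of the 9 whose groups did not overlap, with Myc_VD above, where 0.816% of all genes had Myc_VD above and 9.16% had it below.

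Itpr2 was at 63.0, 81.9, 62.8 and 62.3 TPM in Myc_VD mice 5 to 8, against 38.1 to 49.6 TPM in Myc_WT LZ cells. The lowest Myc_VD library was above the highest Myc_WT library, and mouse 6 stood above the other Myc_VD mice. The difference was 0.56 on the log2 scale (SE 0.20), or 0.87 above the median of all genes, with an adjusted p of 0.21 by limma and an unadjusted p of 0.018; the exact permutation test gave p = 0.0286, the smallest that 70 groupings of 4 mice and 4 allow. The study reported Itpr1 as higher in Myc_VD by another test, which was not run here. Given as a description, Itpr1 was at 26.1, 34.1, 33.5 and 42.7 TPM in Myc_VD against 27.8 to 32.6 TPM in Myc_WT. Myc_VD mice lay on both sides of the Myc_WT range, and the difference of 0.14 on the log2 scale (SE 0.23) was 0.45 above the median of all genes and 0.03 and 0.26 without mouse 8 and mouse 5. It was 0.48 after rescaling by the median ratio, 0.40 after quantile normalization and 0.45 after removal of ribosomal RNA. Itpr3 was at 21.6, 25.1, 21.6 and 24.6 TPM in Myc_VD, overlapping the Myc_WT range of 23.2 to 33.0 TPM, with a difference of -0.24 (SE 0.22, adjusted p = 0.598).

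The difference of Orai1 was 0.60 (SE 0.38, adjusted p = 0.438 by limma). It was at 10.6, 10.9, 11.8 and 6.06 TPM in Myc_VD, inside the range of 4.16 to 12.0 TPM in Myc_WT LZ cells, whose upper end is mouse 1 alone. Itpkb was at 64.0, 60.3, 31.8 and 44.9 TPM in Myc_VD mice, on both sides of all Myc_WT LZ mice, with an SD of 14.8 TPM against 0.965 TPM in Myc_WT, and its difference was 0.21 (SE 0.25, adjusted p = 0.687). The difference of Itpkb was 0.079 without mouse 5 and 0.41 without mouse 7. Atp2a3 was at 79.8, 148.8, 95.1 and 54.7 TPM and Stim1 at 20, 40.7, 20.3 and 23.7 TPM in Myc_VD mice 5 to 8, both highest in mouse 6. Their differences of 0.22 (SE 0.28) and 0.08 (SE 0.28) were -0.02 and -0.14 without mouse 6. Stim2, at 15.7, 15.8, 11.8 and 9.79 TPM in Myc_VD, and Nfatc1, at 70.5, 74.5, 82.0 and 76.2 TPM, overlapped between the genotypes, with differences of 0.10 (SE 0.28) and 0.18 (SE 0.19). Leaving out single libraries gave 0.006 to 0.23 for Stim2 and 0.10 to 0.26 for Nfatc1. Plcg2 was at 84.2, 71.4, 67.9 and 62.1 TPM in Myc_VD, with a difference of -0.21 (SE 0.22, adjusted p = 0.636). The signs of Plcg2 and Itpr3 in this comparison depended on the scaling, as both were above 0 after rescaling by the median ratio, after quantile normalization and after removal of ribosomal RNA.

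The Myc_VD and MBC comparisons share the Myc_WT LZ libraries, so their differences are set side by side only. Itpr1 was at 0.14 in Myc_VD and 2.13 in MBCs, Itpr2 at 0.56 and 0.99, and Stim2 at 0.10 and 1.42. Orai1 was at 0.60 and 0.14, and Itpr3 at -0.24 and -0.15.

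A list of 68 other genes of the pathway in 9 classes was followed in the same fits. In Myc_VD, 0 of the 49 genes tested were called, beside 0.0466% of all genes, with 6 (12.2%) at an unadjusted p under 0.05 by limma, beside 16.9% of all genes, 1 above and 4 below Myc_WT without overlap, beside 0.816 and 9.16% of all genes, and a median of -0.31 against -0.31 for all genes; 1 gene, Tmco1, a calcium leak channel of the ER, was called lower when mouse 5 was left out. In MBCs, 3 of 51 were called higher, beside 4.17% of all genes, and 1 of 51 lower, beside 5.04%, with 14 (27.5%) at an unadjusted p under 0.05 beside 27.1% of all genes, and a median of 0.26 against -0.14 for all genes. Without the MBCs of mouse 3 these medians were 0.45 and 0.01. With the mouse as a block they were 0.17 and -0.10, with 8 of the 51 at an unadjusted p under 0.05 by limma beside 16.8% of all genes. Plcb2, a phospholipase C that acts after G protein-coupled receptors, was at 9.06 to 12.9 TPM in Myc_WT LZ cells and at 73.7, 81.3 and 37.3 TPM in MBCs (2.37 on the log2 scale, SE 0.37, adjusted p = 0.0081). It passed in 16 of 17 alternative fits, all but the fit with the mouse as a block (adjusted p = 0.057), and was at 2.16 (adjusted p = 0.0106) without the MBCs of mouse 3 and at 2.71 (0.003) without those of mouse 4. Bank1, a B cell scaffold that binds IP3 receptors, was at 159.2 to 194.2 TPM against 552.4, 441.6 and 505.4 TPM (1.54, SE 0.19, adjusted p = 0.003), and passed in all 17 alternative fits, at 1.63 (adjusted p = 0.0037) without the MBCs of mouse 3 and 1.53 (0.0046) without those of mouse 4. Ppp3ca, the catalytic alpha subunit of calcineurin, was at 27.3 to 43.6 TPM against 118.1, 95.8 and 87.4 TPM (1.44, SE 0.27, adjusted p = 0.0153). It was at 1.47 (adjusted p = 0.0174) and 1.54 (0.0135) without the MBCs of mouse 3 or 4, and its call was lost with the mouse as a block (0.117) and without LZ mouse 2 (0.0631) or 3 (0.0532). Smdt1, a subunit of the mitochondrial calcium uniporter, was lower, at 45.2 to 70.8 TPM against 15.3, 11.02 and 37.3 TPM (-1.66, SE 0.42, adjusted p = 0.0432). This call was lost in 11 of 17 alternative fits, with adjusted p up to 0.19. Among these were the fits with a pseudocount of 0.1 TPM, with no filter, with no trend, after removal of immunoglobulin and mitochondrial genes, with the mouse as a block, without any single LZ library and without the MBCs of mouse 1 or 3. The difference was -1.31 (adjusted p = 0.0607) without the MBCs of mouse 3 and -2.15 (0.0062) without those of mouse 4. Over the 51 genes tested, MBCs were above Myc_WT LZ cells without overlap in 11, beside 11.8% of all genes, and below without overlap in 3, beside 14.4%; these include the 4 called.

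By class, the genes called higher in MBCs were 1 of 3 tested for IP3 production, 1 of 9 among release channels and their partners and 1 of 10 in the calmodulin and calcineurin class, where 4.17% of all genes were called higher. The gene called lower was 1 of 7 in mitochondrial uptake, where 5.04% of all genes were called lower. With 1 gene at most in a class, these counts say nothing of a class as a whole. None was called among 3 genes of IP3 metabolism, 5 of store-operated entry, 4 pumps and exchangers, 4 NFAT factors and NFAT kinases and 6 calmodulin kinases. The most abundant gene of each class, by the mean over all 11 libraries, was not always a called one. Nfatc3, an NFAT factor, had 116 ± 15.1 TPM in Myc_WT LZ cells and 138 ± 14.0 TPM in MBCs. Camk2d, a calmodulin kinase, had 126 ± 22.6 and 236 ± 103 TPM, Atp2a2, the SERCA2 pump, 60.4 ± 8.79 and 42.1 ± 24.5 TPM, and Orai2 15.5 ± 1.64 and 36.8 ± 26.3 TPM. The most abundant genes of IP3 production and of release channels were Plcb2 and Bank1, that of mitochondrial uptake was Smdt1, and that of IP3 metabolism was Itpk1 with 2.70 ± 0.682 TPM in Myc_WT LZ cells and 11.8 ± 11.2 TPM in MBCs. In Myc_WT LZ cells alone the order was another for Lrmp, at a mean of 261.8 TPM against 170.7 TPM for Bank1, and for the mean of Itpkc (5.02 TPM), which rests on mouse 1 at 15.6 TPM with 0.48 to 2.78 TPM in the other mice. None of these genes other than Plcb2, Bank1 and Smdt1 passed the test.

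**Figure D3:**
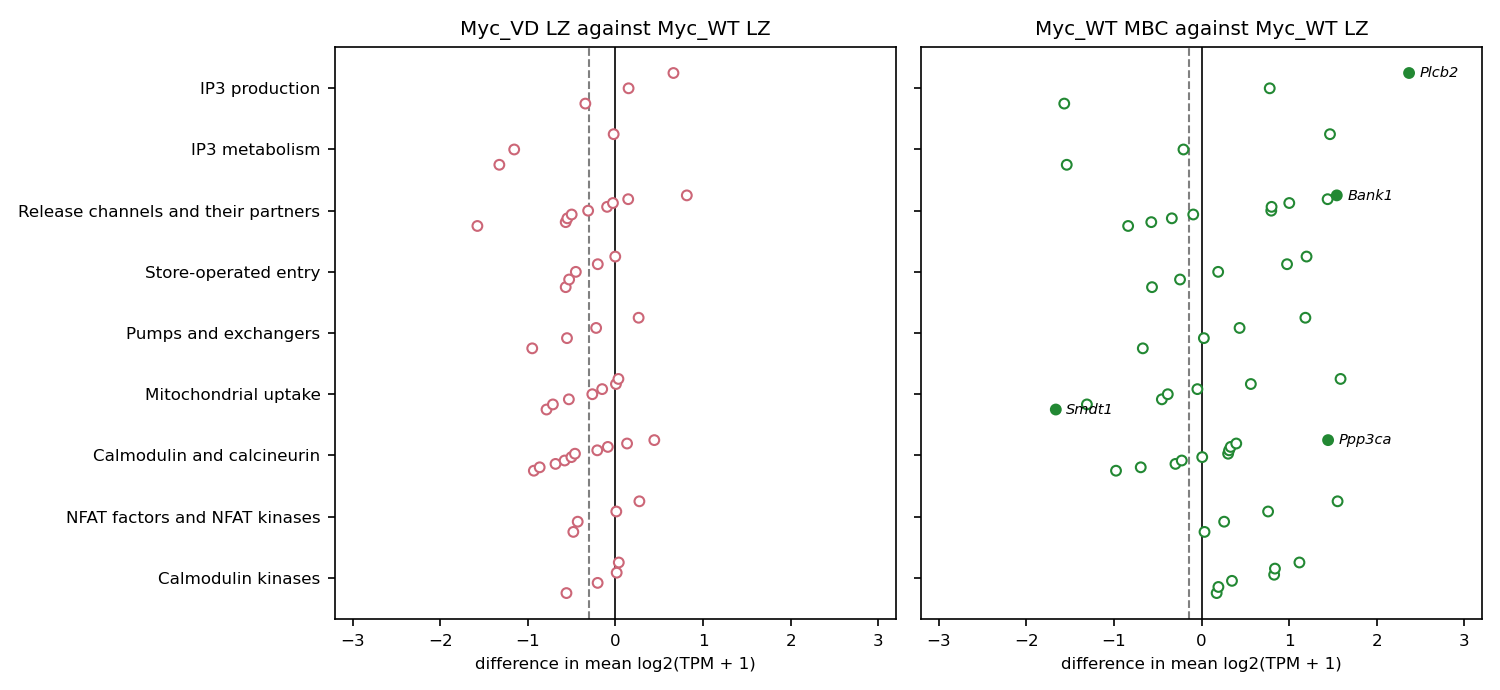
Difference in mean log2(TPM + 1) from Myc_WT LZ (horizontal axes) of the other pathway genes tested, by class, in Myc_VD LZ (left, red, 49 genes) and in Myc_WT MBC (right, green, 51 genes); filled points passed an adjusted p of 0.05 and the dashed line is the median of all genes. The filled points are Plcb2, Bank1, Ppp3ca and, to the left of 0, Smdt1.

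The genes whose pattern over the 11 libraries was nearest to that of Itpr1 were sought among 9221 genes that averaged 5 TPM or more, by the root mean square difference of log2(TPM + 1) after centering each gene on its mean. They were Evi2 (0.28), Macf1 (0.29), Rb1 (0.31), Chd2 (0.32) and Ccdc88c (0.32). Macf1, a crosslinker of actin and microtubules, was at 215.1 to 233.0 TPM in Myc_WT LZ cells, 236.9 to 289.8 in Myc_VD LZ cells and 995.8, 629.9 and 723.5 TPM in MBCs. Rb1, the retinoblastoma tumor suppressor, was at 8.01 to 13.0, 9.52 to 15.1 and 60.7, 45.4 and 58.4 TPM. The 5 genes were chosen by this likeness, so what their patterns share with Itpr1 is a description, and Evi2 was at 2.17 to 3.91 TPM in the 8 LZ libraries and averaged 13.9 TPM in MBCs, so it reached 5 TPM through MBCs alone. The nearest member to Itpr1 was Stim2, at 0.50, which was rank 91 among the 9221 genes. Plcg2 and Nfatc1 were the closest pair of members, at 0.26, and Orai1 lay farthest from any other, at 0.57 from Itpr2. Among all these genes Nfatc1 had rank 232 in nearness to Plcg2, and Plcg2 had rank 81 in nearness to Nfatc1.

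**Figure D4:**
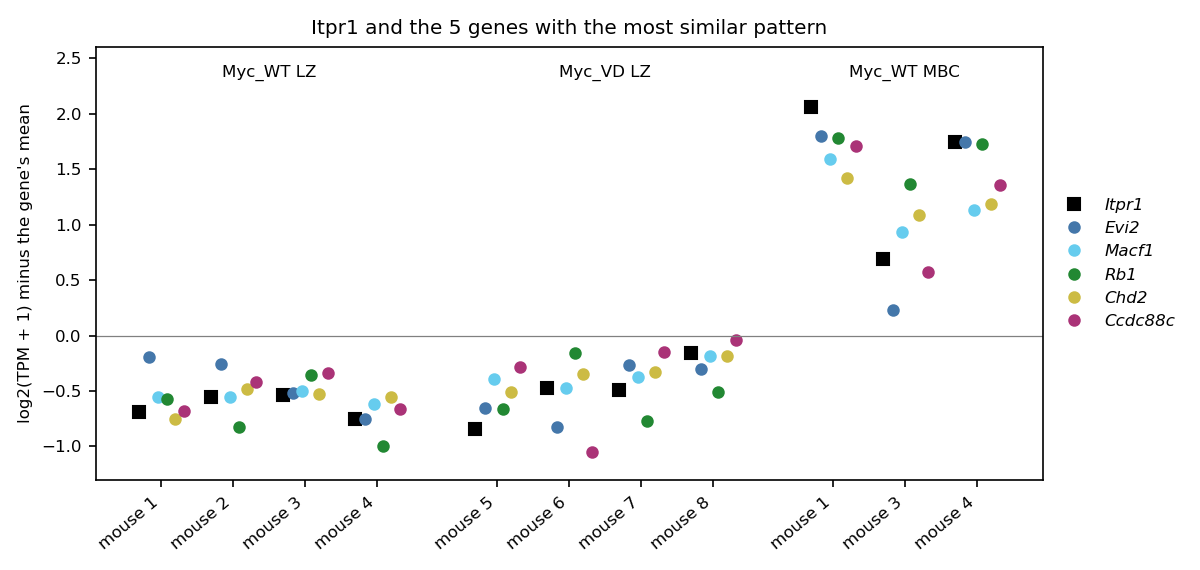
log2(TPM + 1) minus the gene's mean over the 11 libraries (vertical axis) for Itpr1 (black squares) and the 5 genes nearest to it (colored circles), by mouse in Myc_WT LZ, Myc_VD LZ and Myc_WT MBC. All 6 genes lie under their mean in the 8 LZ libraries and above it in the 3 MBC libraries.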

How the data were processed

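RNA of sorted LZ B cells (4 Myc_WT, 4 Myc_VD) and MBCs (3 Myc_WT) was sequenced as 11 libraries. The authors aligned reads with STAR 2.5.2a and quantified GRCm38 transcripts with RSEM 1.3.0, strand by strand, per the labels and the methods, and deposited TPM with 2 decimals; DESeq2 is named for their own tests, which were not used here. TPM keep neither counts nor depth, so the spread between libraries is the 1 measure of precision. The annotation release is not given in the sources used here; symbols and positions came from GENCODE M21 and promoters from RefSeq.

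The groups were tested in R 4.3.3 with limma 3.58.1 (lmFit, eBayes with a trend, two-sided) on log2(TPM + 1), for genes averaging at least 1 TPM in the libraries compared, adjusted over all genes; differences on this scale understate the change of low genes. The script was tested on simulated data. For single members, an exact permutation test over libraries was added. Alternatives were a pseudocount of 0.1, no filter or a mean of 5 TPM, median-ratio, quantile and composition rescaling, no trend, all groups together, the mouse as a replicate block, and each library left out. The mouse names in the labels pair MBCs with the LZ cells of 3 mice; over 13244 genes, departures from the group mean in the paired libraries had r = 0.0048, 0.0017 and -0.035. Nothing beyond the mouse names shows separate cultures or batches, so p-values measure the spread between libraries, each of 1 mouse. The main MBC fit treated the LZ and MBC libraries of the same mouse as independent.

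All members were named with their values in every library. Of the other pathway genes, those past the threshold in either comparison and the most abundant of each class were named, and the 5 genes nearest to Itpr1; 1 gene that this rule gives is not reported here. The members and all lists were chosen with earlier results of these data known. FO B cells and ChIP-seq were not used here.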

Additional observations from a re-analysis of the deposited data

Results flagged for a closer look

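Among 20 sets of 4 mice (10 genes in each genotype of LZ B cells), 2 held a mouse far from the others by Dixon's criterion, where chance gives about 1 in 20. Itpr2 was at 81.9 TPM in Myc_VD mouse 6, while the other 3 Myc_VD mice were at 62.3 to 63.0 TPM; the difference from Myc_WT LZ was 0.46 on the log2 scale without that mouse and 0.56 with it. Orai1 was at 12.0 TPM in Myc_WT mouse 1 and at 4.16 to 5.38 TPM in the other 3, and its Myc_VD difference was 0.90 without that mouse against 0.60 with it. Groups of 3 MBC libraries were not examined in this way.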

How the results depend on the processing

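In Myc_VD, members called stayed at 0 in all 17 alternatives; Plcg2 turned to 0.13, 0.049 and 0.097 and Itpr3 to 0.091, 0.011 and 0.060 after median-ratio rescaling, quantile normalization and removal of ribosomal RNA. Leaving out single libraries gave -0.14 to 0.19 for Stim1 and -0.024 to 0.45 for Atp2a3 (both negative without Myc_VD mouse 6), and 0 to 1 pathway genes called, Tmco1 without Myc_VD mouse 5. Over all genes, 6 were called and 0 to 254 in the alternatives.

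In MBCs, 1 member was called without a filter and with the mouse as a replicate block (Itpr1), and 4 after removal of immunoglobulin and mitochondrial genes (Itpr1, Stim2, Atp2a3 and Nfatc1), where Itpr3 turned to 0.068. The paired fit with the replicate block called 1 pathway gene, Bank1, in place of 4, put Orai1 at -0.0038, and drops LZ mouse 2. Leaving out single libraries gave 1 to 3 members, 2 to 11 pathway genes (11 without MBC mouse 4, 2 without LZ mouse 2 or 3), and -0.50 to 0.72 for Orai1. Over all genes, 1219 were called and 248 to 2754 in the alternatives. Of 340 member values under alternatives, 316 kept their direction and, where tested, side of the threshold. The causes were not tested. With no counts, depth sets an unknown limit.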
